A study of Mus musculus with 13 samples.

Results

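Measured across the cells of mouse colon tumors and adjacent mucosa were 10 genes of antibody production and transport: the immunoglobulin heavy-chain constant genes Igha, Ighm, Ighd, Ighg1, Ighg2b, Ighg2c, Ighg3 and Ighe, the joining chain gene Jchain and the polymeric immunoglobulin receptor gene Pigr. They were taken by symbol from the gene list of the deposited matrices, which found all 10 members among 32285 genes. Single-cell RNA sequencing (scRNA-seq) with a droplet-based 3′ kit was performed on 10 colon tumors (COT 1 to COT 10) and 3 samples of adjacent mucosa (Adj 1 to Adj 3) from 3 mice. All 13 libraries share the strain C57BL/6J, the genotype ApcMin/+; p16cis/cis, which combines a mutant Apc allele with an epimutation of p16, and the supplemented diet, rich in folate and its cofactors, so neither diet nor genotype varies among them. Mouse A, 24 weeks old, gave COT 5 to COT 8 and Adj 2. Mouse B, 23 weeks old, gave COT 9, COT 10 and Adj 3, and mouse C, 20 weeks old, gave COT 1 to COT 4 and Adj 1. The mucosa was dissociated with EDTA followed by TrypLE and the tumors with a tumor dissociation kit, so effects of tissue and of dissociation cannot be told apart.

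Plasma cells of the gut wall mostly make IgA, whose heavy chain is encoded by Igha. Paired IgA molecules are held together by the J chain, and this polymer is bound at the base of epithelial cells by the receptor that Pigr encodes, carried across the cell in vesicles and released into the lumen as secretory IgA. B cells that have not switched class carry IgM and IgD, encoded by Ighm and Ighd. Switching to an Ighg gene gives IgG, which does not take part in this transport, and switching to Ighe gives IgE.

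The heavy-chain genes lie side by side on the minus strand of chromosome 12 of GRCm38 (mm10), from Igha at 113254830 to 113260236 through Ighg3 at 113356224 to 113361232 to Ighm at 113418558 to 113422730. Jchain is on chromosome 5 (88519809 to 88527891, minus strand) and Pigr on chromosome 1 (130826684 to 130852249, plus strand). The ends of the secreted coding sequences are shown because they hold the feature that ties Igha and Ighm to Jchain. Each is the last 57 bases of the coding sequence in GENCODE vM21, stop codon included, 5′ to 3′. Capitals mark a cysteine codon just before the last amino acid, in the tailpiece, where the J chain is bonded in IgA and IgM.

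Igha, chr12:113258768-113258824, minus strand: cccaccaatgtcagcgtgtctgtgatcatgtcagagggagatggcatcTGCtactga
Ighm, chr12:113420867-113420923, minus strand: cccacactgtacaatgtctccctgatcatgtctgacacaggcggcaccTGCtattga
Ighg1, chr12:113328976-113329032, minus strand: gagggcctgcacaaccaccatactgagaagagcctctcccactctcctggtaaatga
Ighg2b, chr12:113306389-113306445, minus strand: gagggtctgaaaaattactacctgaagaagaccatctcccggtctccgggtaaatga
Ighg2c, chr12:113287389-113287445, minus strand: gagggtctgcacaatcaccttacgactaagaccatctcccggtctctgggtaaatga

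The Ighg ends carry no cysteine codon at that place. Ighg2b and Ighg2c were 86.3% identical over 1002 aligned coding bases and shared 56 runs of 50 bases, 5.26% of those of Ighg2b, so reads from these runs cannot be told apart and the split between both genes is uncertain. No other pair of the compared heavy-chain genes shared such a run.

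The tumor libraries held 7789 to 11862 barcodes and 57221300 to 93157039 unique molecular identifiers (UMIs), and the mucosa libraries 6537 to 15049 barcodes and 84883382 to 116133079 UMIs. After filtering, 85953 tumor cells and 22542 mucosa cells were retained, with a median of 3601 to 4987 UMIs per cell in tumors and 7313 to 9740 in mucosa. Clustering gave 3950 plasma cell-like cells (leading genes Mzb1, Ccr10, Derl3 and Tnfrsf17), 5586 B cell-like cells (Ms4a1, Fcmr, Ebf1 and Bank1) and 31817 epithelial cells, and these names come from marker genes that include none of the 10 members. Any pair of libraries shared 14 to 61 barcodes, at most 0.561% of those of the smaller library. The labels give 7 libraries as Female and 6 as Male, with both labels among the samples of mouse A and of mouse C, while RNA of 4 Y-linked genes was present in all 13 libraries (104 to 126 CPM, UMIs of a gene per 1000000 UMIs) and Xist was near 0 (at most 0.129 CPM). Sex was therefore not used, and results from the libraries labelled Male alone (Adj 2 and COT 1, 3, 4, 5 and 7) are given beside some values, with Adj 2 as their only mucosa sample. For the shares of isotypes, compared within mice, these results rest on COT 5 and COT 7 against Adj 2.

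In the tumors, averaged over mice, Igha stood at 75835 ± 5929 CPM (SD, n = 3 mice) in plasma cell-like cells and at 736 ± 760 CPM in dendritic-like cells, which came next. The classes that followed, NK or innate lymphoid-like, T cell-like and B cell-like cells, lay between 375 and 471 CPM, closer together than the spread over mice. Jchain had the same first places, with 53718 ± 5888 CPM in plasma cell-like and 360 ± 225 CPM in dendritic-like cells. Ighm was highest in B cell-like cells (1149 ± 135 CPM), then in plasmacytoid dendritic-like cells (526 ± 94.4 CPM) and plasma cell-like cells (115 ± 98.6 CPM). Ighd, at 454 ± 79.4 CPM, was nearly restricted to B cell-like cells, with 14.2 ± 3.47 CPM in plasmacytoid dendritic-like cells as the next level. Pigr was an epithelial gene, at 1471 ± 217 CPM in goblet-like, 1349 ± 64.5 CPM in other epithelial, 1217 ± 332 CPM in absorptive-like and 1008 ± 89.3 CPM in Paneth-like cells. Neighbours among the first 3 differed by less than the larger of their SDs over mice, and tumor epithelial-like cells were lower, at 267 ± 51.6 CPM, next to enteroendocrine-like cells at 239 CPM in the 1 tumor with enough of them.

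The genes whose levels over the 16 cell classes of the tumors were most like those of Igha, apart from immunoglobulin genes and the other members, were Ccr10, a receptor that guides IgA plasma cells to mucosal surfaces (r = 0.974 across classes), Derl3, of the disposal of misfolded proteins (0.948), Nuggc (0.941), the agouti gene a (0.932) and 5830418P13Rik (0.926). For Ighg1 they were Gm34215, 5830418P13Rik, Eaf2, Nuggc and Tnfrsf17, the plasma cell survival receptor (0.874 to 0.935). Tnfrsf13b, Ly9, Cd79b, Slamf6 and Irf4 came closest to Ighm (0.898 to 0.913), and Oit1, Muc13, Elovl7, Lgals4 and Phgr1 to Pigr (0.977 to 0.982). The classes share libraries, so these correlations, taken over 12383 genes, are descriptions.

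In the sums over all retained cells, which address how much of each transcript the tissues held, RNA for IgA and for the J chain was higher in tumors and RNA for the receptor that carries them was lower. Igha was 420, 917 and 1137 CPM in Adj 1, Adj 2 and Adj 3 and 2380 to 11738 CPM in the 10 tumors (median 6881). Every tumor stood above all mucosa samples, and 53.2% of genes were without overlap in one or the other direction, and COT 10, with the lowest tumor value, belonged to the same mouse as the highest mucosa value. The log2 difference, tumor minus mucosa, was 3.13 (SE 0.52, adjusted p = 1.05e-04, edgeR quasi-likelihood test with Benjamini-Hochberg adjustment over all genes), against 70.3% of 17494 genes called in either direction. Jchain was 354 to 654 CPM in mucosa and 1650 to 7294 CPM in tumors (median 5215), without overlap and with COT 10 again lowest (log2 difference 3.40, SE 0.44, adjusted p = 1.31e-05, edgeR). The kappa light-chain gene Igkc moved with them, from 3116 to 6740 CPM in mucosa to 14126 to 58271 CPM in tumors, and all 4 light-chain genes tested were called higher.

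Pigr went the other way. It was 1372, 1406 and 1720 CPM in Adj 2, Adj 3 and Adj 1 and 156 to 359 CPM in tumors (median 221). The groups did not overlap, and the log2 difference was -2.64 (SE 0.22, adjusted p = 2.49e-07, edgeR). Igha, Jchain and Pigr kept their calls in all 23 other settings tried, those that left out 1 library included.

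The IgG genes were lower in level and more uneven. Ighg2b was 11.9, 24.9 and 80.4 CPM in mucosa and 39.1 to 405 CPM in tumors (median 110), and Ighg2c was 12.1, 23.7 and 32.6 CPM against 29.1 to 394 CPM (median 56.1). Both were called higher in tumors (log2 differences 1.99 and 2.27, adjusted p = 0.0319 and 0.0276, edgeR), although the groups overlapped. Neither was called without Adj 1 (1.72 and 1.94), nor Ighg2b without Adj 3 (1.55) or Ighg2c without Adj 2 (2.30). In the libraries labelled Male alone, with 1 mucosa sample, the differences were 0.97 and 1.21. Ighg1, at 0.548 to 22.8 CPM in mucosa and 0.490 to 187 CPM in tumors (median 47.8), had a log2 difference of 2.88 that was not called (adjusted p = 0.0981, edgeR). With the mouse as a block it was 3.65 and called (adjusted p = 0.0462, edgeR), as it was without Adj 2 (6.22) and under DESeq2 (2.89), but not with the tumors of each mouse summed (2.96, adjusted p = 0.0882, edgeR) or without Adj 3 (2.32). Ighg3 was 0.0999 to 0.358 CPM in mucosa and at most 0.884 CPM in 8 tumors, against 34.9 CPM in COT 5 and 51 CPM in COT 8, and was not called (log2 difference 5.04, adjusted p = 0.108, edgeR). Its difference was 0.017 with the mouse as a block and 0.19 under DESeq2.

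Ighm and Ighd, the genes of unswitched B cells, did not pass the test. Ighm was 8.38, 15.9 and 30.4 CPM in mucosa and 15.8 to 94.2 CPM in tumors (median 23.4; log2 difference 1.12, adjusted p = 0.136, edgeR). Ighd ranged from 0.837 to 12.6 CPM in mucosa and from 1.37 to 29.2 CPM in tumors, with the highest values in COT 10 and COT 7 (log2 difference 0.55, adjusted p = 0.652, edgeR). Both tumors also held the most B cell-like cells, 1540 and 1698.

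Ighe was represented by 171 UMIs in all tumors together and 1 UMI in mucosa, a ratio per UMI of 62.8 (95% exact interval 11.1 to 2494, which covers counting error only). It was called higher (log2 difference 5.47, adjusted p = 0.0386, edgeR) but not with the mouse as a block (adjusted p = 0.0501, edgeR) or without any 1 of the 3 mucosa samples (log2 differences 4.97 to 7.16). Its difference was 4.51 in the libraries labelled Male alone, with 1 mucosa sample, and it was too low to test with the tumors of each mouse summed. Of the tumors, COT 3 with 1.46 CPM and COT 9 with 0.780 CPM carried most of it. In all, 5 of the 10 members were called higher and 1 lower, where 36.3% of all genes were called higher and 34% lower. Their median log2 difference was 2.58, against 0.03 over all genes. In such sums more cells of a type and more RNA per cell cannot be told apart: plasma cell-like cells were 1.45% to 6.32% of retained tumor cells and 1.24% to 2.31% of mucosa cells. Epithelial cells, which hold most Pigr per UMI, were 16926 of 85953 retained tumor cells and 14891 of 22542 mucosa cells.

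**Figure D1:**
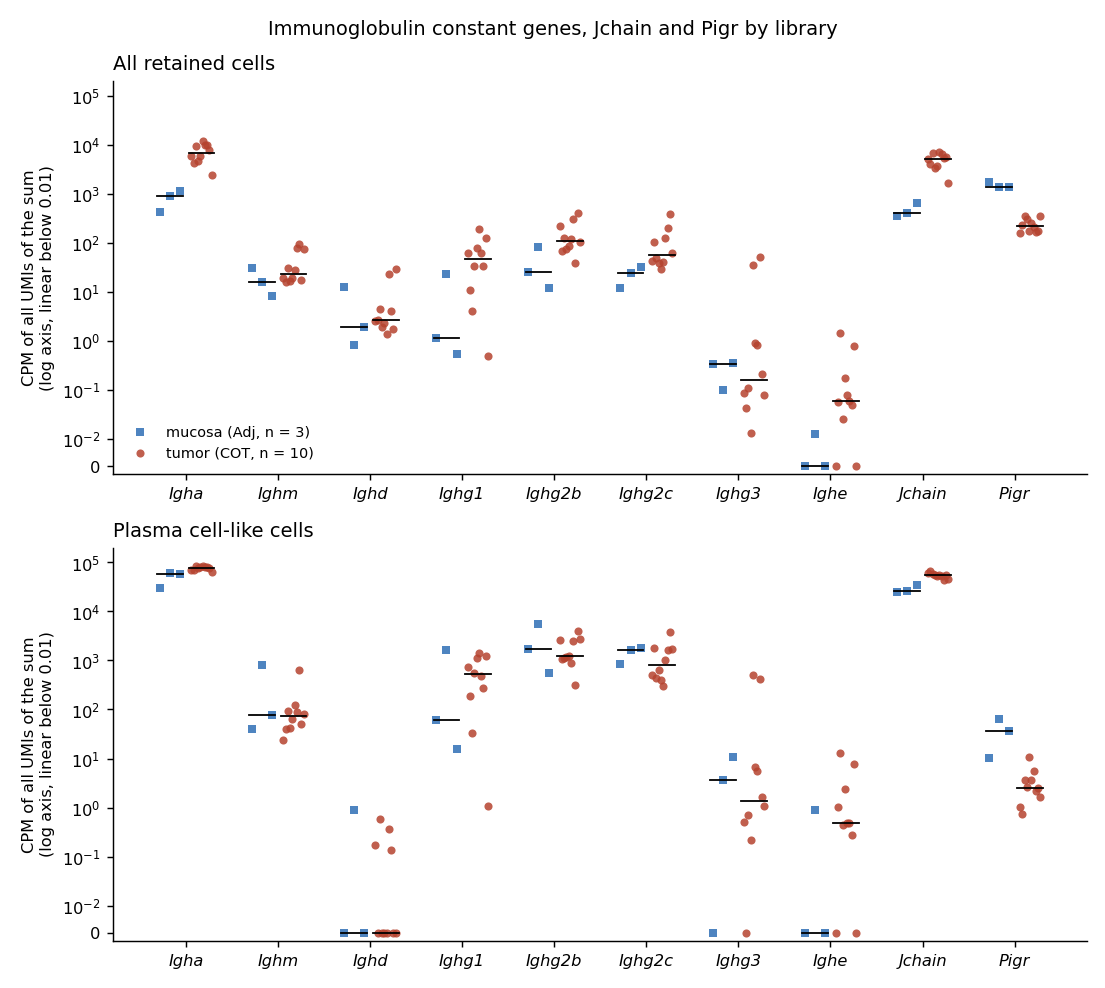
CPM of the 10 members in each library, summed over all retained cells (top) and over plasma cell-like cells (bottom), on a log axis that is linear below 0.01; squares are the 3 mucosa samples, circles the 10 tumors and black lines the group medians. Igha and Jchain are higher in every tumor than in any mucosa sample in both panels, Pigr is lower in every tumor in the top panel, and Ighg3 stands out in COT 5 and COT 8.

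Within plasma cell-like cells (408 in mucosa, 3542 in tumors), Igha and Jchain were also higher in tumors, and the other heavy-chain genes did not pass the test. The class joined a cluster low in cycling genes (335 mucosa and 3393 tumor cells) and one high in them (73 and 149). This mix differed between the tissues, and its part in the differences of plasma cell-like cells was not tested. Igha was 29544, 59651 and 59282 CPM in Adj 1, Adj 2 and Adj 3 and 64220 to 86557 CPM in tumors (median 77957). The mucosa sample of mouse C lay far below the other two, and no tumor reached down to any mucosa sample (33.9% of genes did not overlap in one or the other direction). The log2 difference was 1.30 (SE 0.28, adjusted p = 0.00266, edgeR), and it was not called when the tumors of each mouse were summed first (1.28, adjusted p = 0.0517, edgeR). The J chain gene followed. Jchain was 25242, 26610 and 34379 CPM in mucosa and 43591 to 67403 CPM in tumors (median 54555), without overlap (log2 difference 1.61, SE 0.27, adjusted p = 4.83e-04, edgeR).

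Immunoglobulin genes took 45.9% to 56.1% of all plasma cell UMIs in tumors and 28.9% to 44.0% in mucosa. Tumor plasma cells held a median of 937 to 1506 heavy-chain UMIs per cell and mucosa plasma cells 350 to 442. Their median depth differed as well, at 13899 to 18381 UMIs in tumors and 6687 to 13926 in mucosa, and its part in the difference was not tested. In plain CPM the median gene of the plasma cell sums was 0.70 lower in tumors on the log2 scale, and the log2 differences given here follow TMM scaling, which put that median at 0.05. Of the light-chain genes Igkc was called higher (211367 to 355397 CPM in mucosa, 377740 to 436938 CPM in tumors, log2 difference 1.20, adjusted p = 0.00752, edgeR), and Iglc1, Iglc2 and Iglc3 were not.

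The remaining heavy-chain genes of plasma cells overlapped between the tissues. Ighg1 ranged from 15.6 to 1601 CPM in mucosa and from 1.10 to 1422 CPM in tumors (log2 difference 0.89, adjusted p = 0.634, edgeR). With each library left out its difference was 0.34 to 4.81 and was not called. Ighg2b (564 to 5634 against 312 to 4003 CPM) and Ighg2c (861 to 1798 against 304 to 3883 CPM) had log2 differences of 0.17 and 0.41 (adjusted p = 0.870 and 0.672, edgeR). Ighm was 40.6, 78.0 and 812 CPM in mucosa and 24.2 to 636 CPM in tumors, with Adj 2 and COT 8 far above the rest (log2 difference -0.68, adjusted p = 0.584, edgeR). Over 10 other settings its difference was -2.93 to 0.32, with a call in 1 of them, and it was -1.48 to 1.59 with each library left out. Ighg3 and Ighe were not called (adjusted p = 0.211 and 0.296, edgeR), and Ighd, with 10 UMIs in all plasma cells, was too low to test. Pigr in plasma cell-like cells was 0.751 to 10.7 CPM in tumors and 10.1 to 62.6 CPM in mucosa and was called lower (log2 difference -2.69, adjusted p = 0.00125, edgeR). T cell-like cells, which should lack Pigr, held 4.92 to 15 CPM in tumors and 24.0 to 299 CPM in mucosa. The call of Pigr is therefore not read as a result about plasma cells, and the source of this RNA was not tested. Thus 2 of 9 members tested were called higher and 1 lower, where 28.5% of 9165 genes were called, 13.8% higher and 14.7% lower, and their median log2 difference was 0.89 against 0.05 over all genes.

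Of the 12 genes of the plasma cell program, 6 were called higher and 2 lower in tumor plasma cells, against 13.8% and 14.7% of all genes, with a median log2 difference of 0.29. Xbp1, the transcription factor that expands the secretory apparatus, was 605 to 782 CPM in mucosa and 827 to 1137 CPM in tumors (log2 difference 1.19, adjusted p = 1.05e-04, edgeR), and Sdc1, the surface proteoglycan CD138, rose by 1.30 (adjusted p = 1.89e-04). Fkbp11 was also higher, by 1.06 (adjusted p = 7.80e-04, edgeR). Mzb1, Pou2af1 and Slamf7 were called higher by 0.33 to 0.58 after TMM scaling, but their mean CPM of all UMIs was lower in tumors, so their direction flips with the scaling. Irf4 (-0.86, adjusted p = 8.72e-04, edgeR) and Tnfrsf17 (-0.81, adjusted p = 0.0277, edgeR) were lower. Among the homing genes, Ccr10 was 118 to 195 CPM in mucosa and 232 to 354 CPM in tumors (log2 difference 1.57, adjusted p = 3.60e-05, edgeR). Cxcr3, a receptor for interferon-induced chemokines, was lower by 1.57 (adjusted p = 0.00895, edgeR), and Itgb7, a subunit of the gut-homing integrin, by 1.03 (adjusted p = 0.00618, edgeR). Those 3 were the only ones called of 7 homing genes tested in plasma cells.

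To compare isotype use cell by cell, each plasma cell-like cell with at least 10 heavy-chain UMIs was given the isotype that held at least 50% of them. In tumors 3368 of 3465 such cells were IgA cells, 97 were IgG cells (20 IgG1, 34 IgG2b, 41 IgG2c and 2 IgG3) and 1 was an IgM cell. In mucosa 375 of 394 were IgA cells, 18 were IgG cells (2 IgG1, 6 IgG2b and 10 IgG2c) and 1 was an IgM cell. One cell of COT 8 with 7 UMIs each of Igha and an Ighg gene counts under both. No IgD or IgE plasma cell was found, and a count of 0, taken to allow up to 3 cells, leaves a share of up to 0.0866% in tumors and 0.761% in mucosa.

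The IgA share of plasma cells was 94.9%, 94.0% and 96.2% in Adj 1, Adj 2 and Adj 3 and 93.0% to 98.8% in tumors. Its mean was 96.5% ± 2.13 in tumors and 95% ± 1.14 in mucosa (SD, n = 3 mice), and 8 of 10 tumors stood above the mucosa of their own mouse. The difference of 1.42 percentage points did not pass an exact two-sided permutation test within mice (p = 0.24, adjusted p = 0.267 over 6 shares, smallest p possible 0.0133). It was 0.31 points without Adj 2, 0.70 without Adj 1, 3.25 without Adj 3 and 3.44 in the libraries labelled Male alone. Here and for the other shares, only mice with both tissues enter the test. Leaving out Adj 1, Adj 2 or Adj 3 therefore also took out the tumors of that mouse. The libraries labelled Male alone likewise came down to COT 5 and COT 7 against Adj 2. IgG cells were 3.54% ± 2.13 of plasma cells in tumors and 4.74% ± 0.857 in mucosa (difference -1.19, exact permutation p = 0.267, adjusted p = 0.267), and that difference was -0.31 without Adj 2, -0.36 without Adj 1, -2.91 without Adj 3 and -2.77 in the libraries labelled Male alone. With a minimum of 3 heavy-chain UMIs the IgA and IgG differences were 2.43 and -2.01 (adjusted p = 0.12 and 0.16, exact permutation), with a minimum of 50 they were 0.94 and -0.72, and with isotypes called at 80% of the UMIs the IgG difference was -0.42. COT 9 and COT 10, both from mouse B, had the highest IgG shares of the tumors, 23 of 328 cells (7.01%, 95% Clopper-Pearson interval 4.5% to 10.3%) and 5 of 100 cells (5.00%, 1.64% to 11.3%), above the 7 of 186 cells (3.76%) in the mucosa of that mouse. Counted by UMIs, Igha held 94.6% ± 2.85 of heavy-chain UMIs in tumor plasma cells and 91.3% ± 5.03 in mucosa, a difference of 3.31 points that did not pass the test either (exact permutation p = 0.16, adjusted p = 0.267) and that turned to -0.07 points without Adj 2 and was 9.65 in the libraries labelled Male alone.

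Single cells decided the levels of the rare isotypes. The Ighg3 RNA of COT 5 and COT 8 came mostly from 1 plasma cell each, with 2313 Ighg3 UMIs of 3205 heavy-chain UMIs in COT 5 and 3020 of 3021 in COT 8. The IgM cell of COT 8 held 4187 Ighm and 1430 Igha UMIs, and that of Adj 2 held 643 Ighm UMIs and no other heavy-chain UMI. Of the 166 Ighe UMIs in tumor plasma cells, 59 lay in a cell of COT 3 with 988 Igha UMIs and 47 in a cell of COT 9 with 655 Igha UMIs. The cells richest in Ighe were therefore IgA cells by count, with Ighe at 5.64% and 6.70% of their heavy-chain UMIs.

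Jchain differed between plasma cells of different isotype. Levels were compared between IgA and IgG plasma cells of the same tumor as CPM of UMIs other than immunoglobulin genes, a comparison chosen after seeing the data. Among IgA cells Jchain was 88750 to 153712 CPM over the 10 tumors, and among IgG cells 19212 to 105352 CPM, on 5 to 23 IgG cells per tumor. IgA cells were higher in 10 of 10 tumors, by the least in COT 9 and COT 2 and by the most in COT 10. The log2 difference was 1.5 (adjusted p = 2.79e-11, edgeR with the library as a block), where 2.51% of 4182 genes were called. Per 100 heavy-chain UMIs, tumor IgA cells held 53.0 to 93.1 Jchain UMIs and IgG cells 12.7 to 40.9. In the mucosa the IgA cells were at 37447, 45089 and 64500 CPM and the IgG cells at 30265, 33245 and 19285 CPM, in the same direction in each sample, on only 3 to 8 IgG cells.

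Genes of other lists differed along with Jchain, beside the 2.51% of all genes called: 2 of 12 genes tested of the plasma cell program, 1 of 4 homing genes, 1 of 3 survival and IgA-inducing signals and 1 of 2 B cell genes were higher in IgA cells, 1 of 2 class switching genes was lower, and 0 of 4 Pigr regulators (1, Irf1, at an unadjusted p under 0.05) and 0 of 4 transport genes (0 at that level) were called by edgeR. Ccr10 was higher in IgA cells by 1.69 (628 against 237 CPM, adjusted p = 6.72e-10, edgeR), Tnfrsf17 by 2.40 (212 against 52.2 CPM, adjusted p = 5.59e-07) and Tnfrsf13b, the receptor TACI, by 1.02 (adjusted p = 7.88e-05, edgeR). Sdc1 was higher in IgA cells by 0.70 (adjusted p = 0.00248, edgeR) and Cd79a, of the B cell receptor, by 0.45 (adjusted p = 0.00491, edgeR). The plasma cell genes Xbp1, Mzb1 and Prdm1 were not called (log2 differences 0.18, 0.10 and 0.17, adjusted p = 0.449, 0.778 and 0.878, edgeR). The germinal center factor Mef2b was lower in IgA than in IgG cells, at 18.0 against 55.4 CPM (log2 difference -1.48, adjusted p = 8.89e-04, edgeR). Itgb7 was 62.9 against 48.4 CPM and was not called (adjusted p = 0.274, edgeR). Outside the lists, Txndc5 led the genes higher in IgA cells (1.48, adjusted p = 1.35e-11, edgeR) and Ly6c2 those higher in IgG cells (-2.24, adjusted p = 2.79e-11, edgeR), both named after their values were seen.

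**Figure D2:**
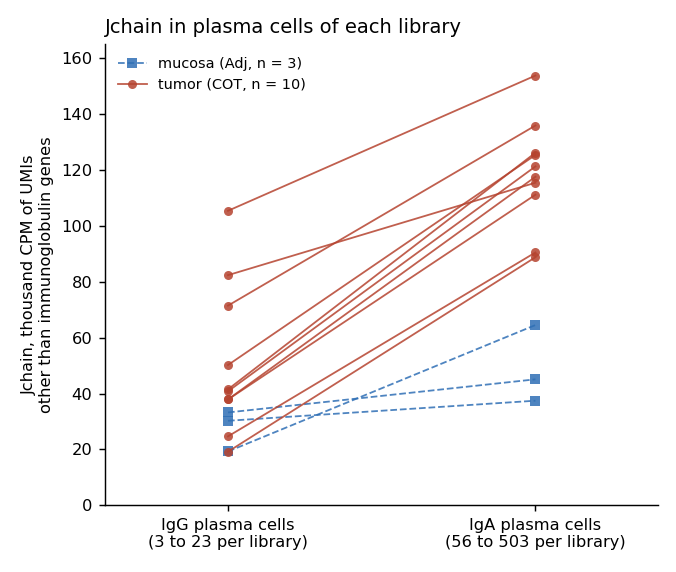
Jchain in IgG and IgA plasma cells of each library, in units of 1000 CPM of UMIs other than immunoglobulin genes; circles with solid lines are the 10 tumors, squares with dashed lines the 3 mucosa samples, and each line joins both values of a library. All 13 lines rise from IgG to IgA cells, and the mucosa IgA cells lie below the IgA cells of every tumor.

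B cell-like cells (1094 in mucosa, 4492 in tumors) carried more Ighm in tumors, and Igha did not pass the test. Ighm was 1078, 340 and 488 CPM in Adj 1, Adj 2 and Adj 3 and 888 to 1587 CPM in tumors (median 1058). Adj 1 lay within the tumors' range and the other mucosa samples below all tumors. The log2 difference was 0.85 (SE 0.25, adjusted p = 0.0108, edgeR, 39.7% of 5820 genes called), and it was not called without Adj 2 (0.55, adjusted p = 0.101) or without Adj 3 (0.68, adjusted p = 0.0853), when the tumors of each mouse were summed (0.73, adjusted p = 0.119), or when B cells were gated by markers (0.60, adjusted p = 0.108). Ighd followed the same pattern, at 552, 95 and 206 CPM in mucosa and 334 to 622 CPM in tumors (log2 difference 0.62, adjusted p = 0.0981, edgeR). Its difference was 0.22 to 1.54 with each library left out, and it was called in 3 other settings, the mouse as a block included. Igha was 278, 1213 and 616 CPM in mucosa and 108 to 709 CPM in tumors (log2 difference -0.74, adjusted p = 0.128, edgeR). Its difference was -0.11 without Adj 2, and -1.13 and called without Adj 1 (adjusted p = 0.0201, edgeR). With the mouse as a block, Ighd (0.79, adjusted p = 0.0107, edgeR) and Igha (-0.87, adjusted p = 0.0216, edgeR) were also called, which brought the members called from 2 to 4. Neither was called with the tumors of each mouse summed (0.56 and -1.05, adjusted p = 0.341 and 0.140, edgeR).

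The other members were low in B cells. Jchain was 44.1 to 382 CPM in mucosa and 44.3 to 424 CPM in tumors (log2 difference 0.37, adjusted p = 0.588, edgeR). Ighg2b stood out in COT 4 at 540 CPM, against 16.9 to 162 CPM in the remaining tumors and 59.5 to 157 CPM in mucosa. Ighg3, with 21 UMIs in tumors and 40 in mucosa, had a ratio per UMI of 0.142 (95% exact interval 0.0793 to 0.246), and, like Ighg2c and Ighe, was too low to test. Pigr in B cells was called lower in tumors (log2 difference -2.44, adjusted p = 3.65e-05, edgeR) at 7.01 to 27.0 CPM in tumors and 36.5 to 210 CPM in mucosa, beside the similar T cell levels above. In all, 1 of 7 members tested was called higher and 1 lower (median log2 difference -0.19, against 0.03 over all genes), where 19.3% of genes were called higher and 20.4% lower. In the same cells the lambda genes Iglc1 and Iglc3 were lower in tumors (by 2.33 and 1.43, adjusted p = 1.23e-05 and 7.50e-05, edgeR), and Igkc was higher by 0.57 (adjusted p = 0.0417, edgeR). Of the 10 B cell genes Pax5 and Bank1 were called higher and Cd79b lower.

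A B cell with at least 3 heavy-chain UMIs was counted as switched where Igha, Ighg or Ighe genes held at least 50% of them. The switched share was 10.1%, 72.9% and 50.6% in Adj 1, Adj 2 and Adj 3 and 7.72% to 32.4% in tumors. The mucosa of mice A and B stood above all tumors, while that of mouse C lay among them. The mean difference of -29.1 percentage points (15.4% ± 10.3 in tumors, 44.5% ± 31.9 in mucosa, SD, n = 3 mice) had an exact permutation p of 0.04 and an adjusted p of 0.24 over the 6 shares. It was negative in every other setting. It was -43.8 points without Adj 1 and -20.8 without Adj 2, which also took out the tumors of mouse C and of mouse A. In the libraries labelled Male alone, here COT 5 and COT 7 against Adj 2, it was -50.6. In Adj 2 and Adj 3 Igha dominated 66.0% and 42.7% of the counted B cells and the Ighg genes 7.64% and 8.43%. IgA cells outnumbered IgG cells among the counted B cells of every library except COT 3, with 11 of each, and COT 9, with 0 IgA and 5 IgG cells.

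Part of the Igha in B cells has to be read against cells that do not make it. The same rule, applied to all cells of a class, gave IgA calls in 15.9% to 18.0% of T cell-like cells and 13.5% to 17.3% of neutrophil-like cells in the 4 tumors of mouse A, in 9.98% and 11.4% in COT 9, and in 0.446% to 2.35% of both classes in the other 5 tumors. Tumor epithelial-like cells of mouse A reached 37.7% to 40.3%, at a median depth of 8983 to 14655 UMIs. B cell-like cells, at 1790 to 2535 UMIs against 3087 to 4580 in T cells, gave 14.1% to 26.8% in mouse A, 0% in COT 9 and 2.92% to 5.33% elsewhere. B cells stood above T cells in 7 of 10 tumors by these calls and likewise in 7 of 10 by Igha CPM, but not in the same tumors. By calls they lay below T cells in COT 5, COT 7 and COT 9. By CPM they lay below in COT 3 (279 against 2156), COT 7 (527 against 690) and COT 10 (108 against 277), while in COT 9 they were at 291 against 219 CPM. The Ighm and Ighd UMIs of a B cell count against an IgA call and T cells have few of them, so the shares of both classes are not alike. The share by calls lay above both T cells and neutrophils in COT 6 and COT 8 of mouse A, in COT 10 and in COT 1 to COT 4. In the mucosa, B cells gave 5.90%, 39.1% and 29.5% in Adj 1, Adj 2 and Adj 3 and T cells 0%, 1.75% and 1.16%, far below. Mucosa B cells also held 0.159, 0.315 and 0.101 Jchain UMIs per Igha UMI, fewer than the plasma cells of the same samples (0.854, 0.446 and 0.580).

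**Figure D3:**
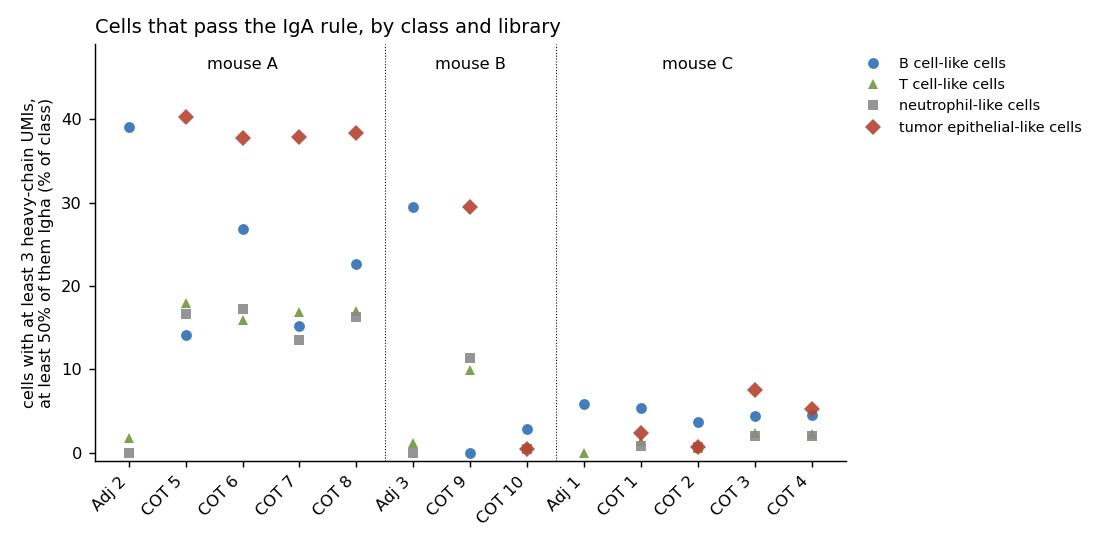
Share of B cell-like, T cell-like, neutrophil-like and tumor epithelial-like cells with at least 3 heavy-chain UMIs of which at least 50% were Igha, in percent of all cells of the class (classes with at least 20 cells), by library and grouped by mouse. In mouse A the T cells and neutrophils of all 4 tumors lie between 13.5% and 18.0%, whereas in the mucosa of mice A and B the B cells alone are high.

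The tumors of the 3 mice differed in these calls. The IgA share of callable B cells was 18.8% to 30.6% in mouse A, 0% to 4.96% in mouse B and 5.47% to 8.04% in mouse C (exact permutation of F over 3150 arrangements, p = 0.000635, the smallest possible, adjusted p = 0.00317 over 10 measures chosen after seeing the data). The IgA calls in T cells differed between the same mice (exact permutation p = 0.00254, adjusted p = 0.00635). Measured as CPM, Igha did not pass in B cells (means of 588, 200 and 338 CPM in mice A, B and C, adjusted p = 0.0717, exact permutation) or in T cells, with means of 414, 248 and 723 CPM (adjusted p = 0.809, exact permutation). The mean of mouse C rested on COT 3 (2156 CPM) and was 245 CPM without it. The IgA share of plasma cells also differed, at 96.9% to 98.6% in mouse A, 93.0% to 95% in mouse B and 97.2% to 98.8% in mouse C (exact permutation p = 0.0165, adjusted p = 0.0275). Ighm in B cells and Pigr in epithelium did not pass (adjusted p = 0.439 and 0.660, exact permutation).

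Pigr was lower in the epithelium of tumors. Among the epithelial classes with at least 20 cells in more than 1 tumor, its lowest levels were in the tumor epithelial-like cells. Summed over all epithelial clusters, Pigr was 1438, 1529 and 1994 CPM in Adj 2, Adj 3 and Adj 1 and 355 to 778 CPM in tumors (median 483). Every tumor stood below every mucosa sample, and 45.8% of genes were likewise without overlap. The log2 difference was -1.90 (SE 0.21, adjusted p = 6.44e-06, edgeR), where 64.1% of 15493 genes were called, 34% higher and 30.1% lower in tumors. With the tumor epithelial-like cells left out, an alternative chosen after seeing the data, it was -0.38 and was not called (adjusted p = 0.0924, edgeR), nor with the mouse as a block (-0.40, adjusted p = 0.0708, edgeR). The mucosa was then at 1438 to 1994 CPM and the tumors at 989 to 1774 CPM, and each of the 10 tumors still lay below the mucosa of its own mouse. Of the 6 heavy-chain and Jchain genes abundant enough to test in these epithelial sums, Ighg2c alone was called (3.04, adjusted p = 0.0432, edgeR), and Igha (2.23, adjusted p = 0.0840) and Jchain (2.37, adjusted p = 0.0529) were not. Ighg2c was near the floor, at a median of 0.576 CPM in tumors and 0.184 CPM in mucosa. Under DESeq2, Igha, Ighg1, Ighg2b and Jchain were called as well. The source of this RNA in epithelial sums was not tested.

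Tumor epithelial-like cells, named from Wnt target genes such as Axin2, Lgr5, Notum and Nkd1, numbered 12783 in tumors and 10 in mucosa and held 45.6% to 86.0% of the epithelial UMIs of a tumor. Their Pigr level was 159 to 343 CPM (mean 255 ± 62.2, SD, n = 10 tumors). The lowest value was in COT 3 and the highest in COT 9 and COT 6. Within each tumor it was below that of the absorptive-like cells in 10 of 10 tumors (the latter higher by a median ratio of 4.60), of the goblet-like cells in 9 of 9 (6.38) and of the other epithelial cells in 10 of 10 (4.95). These classes were built from the same cells, so the ratios are descriptions. Thinned to 2000 UMIs per cell, 25.9% to 47.1% of tumor epithelial-like cells held a Pigr UMI (61.5% to 78.8% unthinned), against 56.6% to 92.5% of absorptive-like, 78.0% to 96.4% of goblet-like and 74.7% to 94.3% of other epithelial cells of the tumors. Thinning left out 461 tumor epithelial-like, 85 absorptive-like, 77 goblet-like and 44 other epithelial cells of the tumors as too shallow.

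Class by class, Pigr did not pass the test between the tissues. The classes joined clusters in mixes that differed between the tissues. One absorptive-like cluster held 1048 of 1072 tumor cells but 532 of 3286 mucosa cells. A cluster of other epithelial cells held 1598 of 1650 and 733 of 6859. The goblet-like clusters held 82 and 487 tumor cells against 2720 and 1583 mucosa cells. The part of this mix in the values by class was not tested. In absorptive-like cells it was 1347 to 1572 CPM in mucosa and 571 to 2073 CPM in tumors (log2 difference -0.34, SE 0.28, adjusted p = 0.398, edgeR, 29.8% of genes called). The tumors spread on both sides of the mucosa samples, and 7 of 10 lay below that of their own mouse. In goblet-like cells it was 1654 to 2352 CPM in mucosa and 1262 to 2061 CPM in the 9 tumors with at least 20 such cells (log2 difference -0.13, SE 0.19, adjusted p = 0.705, edgeR, 13.3% called). With COT 9 and its 8 goblet-like cells included, 10 of 10 tumors lay below the mucosa of their own mouse. In other epithelial cells it was 1374 to 1628 CPM against 931 to 1876 CPM (log2 difference -0.15, SE 0.17, adjusted p = 0.485, edgeR, 40.8% called), and 8 of 10 tumors lay below the mucosa of their own mouse. Paneth-like cells, present in 9 tumors at sufficient number, were at 846 to 1228 CPM, and enteroendocrine-like cells of the mucosa at 668 to 855 CPM.

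**Figure D4:**
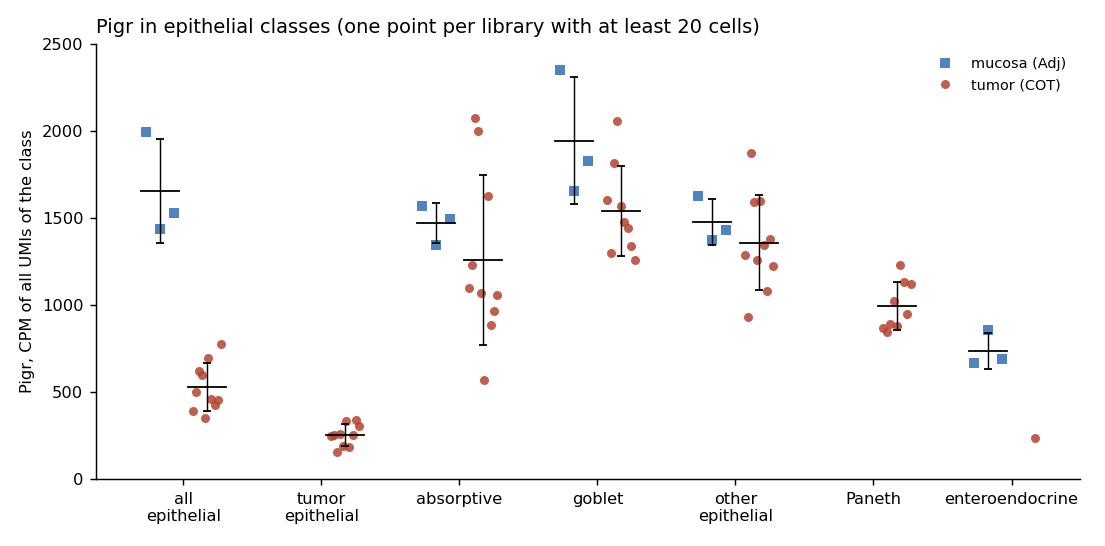
Pigr in CPM of all UMIs of an epithelial class, one point per library with at least 20 cells of the class, squares for mucosa and circles for tumors; black bars are means with SD. Tumor epithelial-like cells lie between 159 and 343 CPM, under every other class of the tumors except the single enteroendocrine-like point (239 CPM), while tumor and mucosa points overlap in the absorptive, goblet and other epithelial classes.

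Genes that work with Pigr were compared in the same epithelial sums. Of 9 genes of its vesicle transport, 6 were called lower in tumors and 1 higher, with a median log2 difference of -0.50 against 0.04 over all genes tested, of which 30.1% were called lower and 34% higher. Within the classes, where 8 of the 9 were tested each, 3 were lower and 0 higher in absorptive-like cells, 0 lower and 1 higher in goblet-like cells and 1 lower and 2 higher in other epithelial cells, where 29.8%, 13.3% and 40.8% of all genes were called. Rab17, a small GTPase of transcytosis, was 8.11 to 21.7 CPM in mucosa and 5.11 to 11.7 CPM in tumors (log2 difference -1.28, adjusted p = 3.21e-04, edgeR). Rab3b, which binds the receptor, was rare, with 92 UMIs in tumors and 582 in mucosa (log2 difference -3.27, adjusted p = 9.68e-05, edgeR). Rab25, of apical recycling, was lower by 0.67, and Arf1, Mal2 and Vps35 by 0.46 to 0.54. Rab5a, of early endosomes, was higher by 0.36 (adjusted p = 0.0115, edgeR), and Rab11a and Stx3 were not called. Rab17 was also lower within absorptive-like (-1.81, adjusted p = 2.76e-04, edgeR) and other epithelial cells (-1.58, adjusted p = 2.3e-05, edgeR), whereas Mal2 was lower in absorptive-like cells (-0.53) and higher in goblet-like (0.64) and other epithelial cells (0.30). The part of the differing cluster mix of these classes was not tested.

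Of 14 genes that regulate Pigr, 5 were called higher and 2 lower in tumor epithelium, where 34% of all genes were called higher and 30.1% lower. The NF-κB subunit Rela was 14.1 to 15.8 CPM in mucosa and 27.0 to 41.9 CPM in tumors (log2 difference 0.98, adjusted p = 1.27e-05, edgeR), and Nfkb1, Relb, Stat6 and the interleukin 4 receptor gene Il4ra were higher by 0.31 to 0.73. The interleukin 17 receptor subunit Il17rc was 36.7 to 60.9 CPM in mucosa and 21.6 to 36.7 CPM in tumors (log2 difference -1.13, adjusted p = 5.25e-05, edgeR), and the interferon gamma receptor gene Ifngr1 was lower by 0.84 (adjusted p = 0.00317, edgeR). Irf1 was not called. Within the classes, 3 Pigr regulators were higher and 1 lower of 14 tested in absorptive-like cells, 1 and 1 of 12 in goblet-like cells and 6 and 0 of 14 in other epithelial cells, where 29.8%, 13.3% and 40.8% of all genes were called. Fcgrt, which encodes the neonatal Fc receptor that carries IgG across epithelia, fell from 14.4 to 33.7 CPM in mucosa to 4.59 to 15.8 CPM in tumors (log2 difference -1.82, adjusted p = 3.63e-04, edgeR), and its partner B2m was not called. Within absorptive-like and other epithelial cells Fcgrt was not called either (-0.60 and -0.35, adjusted p = 0.142 and 0.167, edgeR), and in goblet-like cells it was too low to test. The differing cluster mix limits these values by class as well.

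Signals that draw plasma cells to the mucosa or promote IgA were compared in the sums over all cells. Ccl28, the epithelial chemokine bound by Ccr10, was 30.1 to 38.7 CPM in mucosa and 1.31 to 10.6 CPM in tumors (log2 difference -3.0, adjusted p = 6.40e-05, edgeR). Ccr10 itself was 1.8 to 3.1 CPM in mucosa and 12.3 to 40.1 CPM in tumors (log2 difference 3.33, adjusted p = 4.32e-06, edgeR). The tissues did not overlap in either gene, with opposite directions, as was so of 53.2% of all genes in one or the other direction. Epithelial cells were 14891 of 22542 retained mucosa cells and 16926 of 85953 retained tumor cells. In the epithelial sums Ccl28 was among the 5 of 8 homing genes called by edgeR, and DESeq2 called it too. Of those 5 genes 4 were higher and 1 lower, where 64.1% of all genes were called. The part of the epithelial share in the difference of Ccl28 over all cells was not tested. In all, 8 of 12 homing genes were called higher and 2 lower, and among the survival and IgA-inducing signals 6 of 11 tested were called higher and 1 lower. Of all genes in these sums 36.3% were called higher and 34% lower. Tgfb1, a switch factor for IgA, was 7.76 to 20.8 CPM in mucosa and 111 to 153 CPM in tumors (log2 difference 3.30, adjusted p = 1.27e-07, edgeR), and Il6 and Il10 were higher by 6.82 and 2.78 (adjusted p = 2.89e-06 and 0.00169, edgeR). Tnfsf13, which encodes the plasma cell survival factor APRIL, was 52.0 to 63.1 CPM in mucosa and 21.7 to 35.8 CPM in tumors (log2 difference -0.99, adjusted p = 2.93e-05, edgeR). Tnfsf13b, which encodes BAFF, was not called (adjusted p = 0.812, edgeR). For these signals too, more cells of a type and more RNA per cell cannot be told apart in such sums. Of the 10 B cell genes 0 were called by edgeR in these sums (median log2 difference 0.57), 1 (Cd79a) had an unadjusted p under 0.05 and 2 (Cd79a and Ms4a1) were called by DESeq2.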

How the data were processed

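Droplet-based 3′ scRNA-seq libraries of 10 colon tumors and 3 adjacent mucosa samples were analyzed. Reads had been counted with Cell Ranger (6.0.0 in the submitters' processing notes, another version in the study's methods) against mm10, and the authors deposited raw UMI counts per gene and barcode, without normalization. The 10 members and the gene lists were chosen with earlier results of these data known.

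A barcode was kept if it held 500 UMIs or more, 200 genes or more and at most 25% mitochondrial UMIs, and the highest doublet scores were removed (0.8% per 1000 barcodes, 10397 in all), leaving 108495 of 137591 barcodes. Cells were clustered (30 principal components of 2000 variable genes, Leiden, resolution 1, 37 clusters) and named from marker lists. A class needed at least 20 cells in a library. UMIs were summed per library and class and tested, tumors against mucosa, with edgeR 4.0.16 (TMM, filterByExpr, quasi-likelihood test, Benjamini-Hochberg adjustment over all genes tested, threshold 0.05). This procedure was tested on simulated data, in which libraries were independent, all genes had the same spread and mice did not differ. Those data therefore do not cover tumors that share a mouse. DESeq2 1.42.0 was an alternative. Each library was taken as a sample, although tumors of 1 mouse share the animal, so p-values partly measure spread within mice.

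Tumors and mucosa are tied by the animal, not by the replicate number. Tumor and mucosa deviations of the same mouse correlated across genes, in the order A, B, C, with r = 0.103, 0.0389 and 0.0793 over all cells, 0.141, -0.0369 and 0.142 in plasma cells, 0.13, -0.0142 and 0.0836 in B cells and 0.121, 0.112 and 0.227 in epithelium. For shares, an exact two-sided permutation test let each library of a mouse take the place of its mucosa in turn (75 assignments), with the mean over mice of tumors minus mucosa as the statistic. A mouse without its mucosa sample dropped out of this statistic. Intervals are 95% exact intervals of counting error.

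Named genes are all 10 members and, from 9 lists, genes given with the count of their list, namely light chains (4 genes), B cell genes (10), plasma cell program (12), class switching (8), IgA-inducing signals (12), homing (12), Pigr regulators (14), transcytosis (9) and neonatal Fc receptor (2), besides the 5 genes most like Igha, Ighg1, Ighm and Pigr over cell classes with at least 10 CPM in a class. In the all-cell sums, 4 class switching genes were called higher and 3 lower of 8, and in plasma cells 1 and 1 of 4 (all genes: 36.3% and 34%, and 13.8% and 14.7%). Alternatives were other normalizations and filters, other cell rules, the mouse as a block and each library left out, and, chosen after seeing the data, the libraries labelled Male alone and the epithelium without tumor epithelial-like cells.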

Additional observations from a re-analysis of the deposited data

Results flagged for a closer look

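In 11 of 41 sets of values a single tumor stood far from the others (gap to the next value over the range above Dixon's 95% critical value), where chance alone flags about 1 in 20. That rate assumes independent sets with a normal spread. The sets here overlap, as the IgA and IgG shares of UMIs do. For the IgM share and for Ighe in B cells all other tumors were at 0. No conclusion is drawn from the number of flags. COT 9 was the highest tumor for Ighg2c in the all-cell sums (394 CPM, next 205) and in plasma cell-like cells (3883 CPM, next 1761), and for Ighg1 in B cell-like cells (77.7 CPM, next 25.3). In its plasma cells Igha held 89.2% of heavy-chain UMIs, the lowest share of the tumors, and the Ighg genes 10.7%, the highest. COT 8 was highest for Ighm in plasma cells (636 CPM, next 123) and had the only tumor IgM plasma cell (0.252% of its plasma cells).

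COT 5 was highest for Pigr in plasma cells (10.7 CPM, next 5.63) and for Ighg3 in B cells (25 CPM, next 5.63). COT 4 stood apart for Ighg2b in B cells (540 CPM, next 162), and COT 3 was the only tumor with Ighe in B cells (3.60 CPM, from 2 UMIs). No explanation of these values was tested.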

How the results depend on the processing

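Over 40 results and 889 comparisons with other settings, 829 kept their direction and their side of the threshold, 21 reversed, 18 lost and 13 gained the call, and 8 counts moved by more than 1.5 times. In the all-cell sums 6 members were called, and 3 to 6 with each library left out (3 without Adj 1). In plasma cells 3 were called in every leave-one-out fit and 2 to 4 in the other settings. In B cells 2 were called, 4 with the mouse as a replicate block, 1 with the tumors of each mouse summed, 1 with a marker gate and 1 to 4 with each library left out (4 without Adj 1, 1 without Adj 3). The replicate block changed no other call of a member than those given beside Ighg1, Ighe, Igha and Ighd. Pigr in epithelium was -1.99 to -1.75 with each library left out, and -0.38 without tumor epithelial-like cells (-0.40 with the mouse as a block).

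The reversals concern values that were not called, and their cause was not tested. Under DESeq2 the log2 difference of Ighd over all cells was -0.0435 and that of Ighg3 in plasma cells -0.50. With a marker gate, plasma cell Ighm was 0.32, Ighg1 -0.77 and Ighg2b -0.43, and with doublets kept Ighg2b was -0.033. In the libraries labelled Male alone, plasma cell Ighg1, Ighg2b and Ighg2c were -0.66, -0.90 and -0.70 and B cell Jchain -0.70. With each library left out, the IgA share of plasma cell heavy-chain UMIs differed by -0.0675 to 7.33 points and the IgG share by -6.85 to 0.114 (the reversal in both without Adj 2), Ighd over all cells by -0.0336 (without COT 10) to 2.38, plasma cell Ighm by -1.48 to 1.59 (without Adj 2), plasma cell Ighg2b by -0.27 to 1.42 (reversed without Adj 1, Adj 3 or COT 9), B cell Ighg2b by -0.98 to 0.11 (without Adj 3), B cell Jchain by -0.13 (without Adj 1, and -0.05 without Adj 3) to 1.91 and goblet cell Pigr by -0.24 to 0.0511 (without Adj 1). Of these, B cell Jchain without Adj 2 and B cell Ighg2b without COT 4 were called. In the shares, leaving out a mucosa sample also left out the tumors of its mouse. The 3 mucosa samples and the 5 to 23 IgG plasma cells per tumor set the precision.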
